A study of Mus musculus with 30 samples.

Results

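The insulin-like growth factor (IGF) system was followed through 10 genes in mouse colon. These are the ligand genes Igf1 and Igf2, the receptor genes Igf1r and Insr, and the genes of 6 binding proteins, Igfbp2 to Igfbp7. They were chosen by name, as members of the pathway, out of 46078 genes in the count table, and all 10 passed the filter on low counts in every comparison. Colon RNA was sequenced from 30 C57BL/6J mice, with 6 mice in each of 5 groups and 1 library per mouse. CD females, CD males, HFD females and HFD males were fed a control diet (CD) or a high fat diet (HFD) for 13 weeks and given vehicle. HFD+E2 males were fed HFD and given estradiol (E2, 0.5 mg/kg body weight) in 9 intraperitoneal injections over the last 3 weeks. The females kept their ovaries and their estrous cycle was not followed, and the mice came from in-house breeding at an age of 5 to 6 weeks. No E2-treated females and no E2-treated CD mice are among these groups.

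IGF1 and IGF2 are small hormones made by the liver and, locally, by stromal cells of many tissues. They bind the IGF1 receptor, a tyrosine kinase that signals through IRS adaptors, PI3 kinase and Akt, and the closely related insulin receptor. Most IGF outside cells is held by binding proteins, which prolong its life, keep it from the receptor or bring it to the cell surface, and proteases such as PAPP-A cut the binding proteins and set the ligand free. In the gut wall, fibroblasts and smooth muscle cells are known sources of IGF ligands and binding proteins, and the epithelium responds to them.

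The libraries held from 8667177 to 17243712 counts on genes, with a median of 11530916, and mitochondrial genes took 26.1% to 38.0% of them. Xist and Ddx3y matched the labelled sex in 30 of 30 libraries. Colon epithelium markers were high in all 5 groups (group medians of their summed CPM from 7263 to 7919). Some HFD libraries stood apart in markers of stratified squamous epithelium, such as lines the anal canal, which is not part of the colon mucosa. The summed CPM of 10 such markers ranged from 1.79 to 6.21 in CD females, from 1.52 to 18.2 in CD males and from 1.80 to 3.62 in HFD+E2 males, but reached 1608 in HFD females and 444 in HFD males. The squamous score, the mean log2 CPM of these markers, was above 0 in HFD females 1, 3, 4 and 5, in HFD males 2 and 4 and in CD male 3, and values without these 7 libraries are given beside the comparisons that include HFD mice.

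Igfbp2 and Igfbp5 are neighbours on chromosome 1 of the mouse genome (GRCm38). Igfbp2 spans chr1:72824503-72852474 on the forward strand and Igfbp5 spans chr1:72857932-72874884 on the reverse strand, so that their ends face each other across 5457 bp. Igfbp3 lies at chr11:7206086-7213923 on the reverse strand. The 250 bases before a RefSeq transcription start are shown for these 3 genes, because the first 2 were the binding proteins that passed the adjusted threshold between the sexes on CD and the third was the member that differed most between the sexes on HFD. The sequences are from RefSeq (GRCm38.p6), 5′ to 3′ on the strand of the gene. RefSeq also lists a later start for Igfbp2, whose window (chr1:72825137-72825386) is not shown because 65 of its bases lie in annotated exons. The Igfbp5 window shown has 19 such bases, and the Igfbp2 and Igfbp3 windows shown have 0. Capitals mark a GC box (GGGCGG, also as CCGCCC) or an E box (CACGTG).

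Igfbp2, chr1:72824230-72824479, forward strand: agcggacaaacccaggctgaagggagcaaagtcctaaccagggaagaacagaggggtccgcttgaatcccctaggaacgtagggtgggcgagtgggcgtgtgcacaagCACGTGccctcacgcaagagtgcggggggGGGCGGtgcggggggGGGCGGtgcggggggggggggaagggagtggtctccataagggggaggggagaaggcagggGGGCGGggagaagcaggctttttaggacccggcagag

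Igfbp5, chr1:72874866-72875115, reverse strand: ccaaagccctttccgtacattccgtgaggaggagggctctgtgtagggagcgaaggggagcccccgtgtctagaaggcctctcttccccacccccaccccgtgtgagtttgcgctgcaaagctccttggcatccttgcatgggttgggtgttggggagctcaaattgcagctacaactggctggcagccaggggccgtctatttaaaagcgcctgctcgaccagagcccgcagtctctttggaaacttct

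Igfbp3, chr11:7213924-7214173, reverse strand: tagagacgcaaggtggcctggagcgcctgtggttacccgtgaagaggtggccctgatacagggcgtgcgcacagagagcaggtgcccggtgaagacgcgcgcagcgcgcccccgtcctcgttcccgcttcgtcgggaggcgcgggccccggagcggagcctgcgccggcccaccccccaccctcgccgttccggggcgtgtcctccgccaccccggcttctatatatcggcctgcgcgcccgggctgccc

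The Igfbp2 window shown held 3 GC boxes and 1 E box. The Igfbp5 and Igfbp3 windows held neither. Searched on both strands, the 3 windows shown also lacked TATAAA, the core of the TATA motif. The sequence CCAAT of the CCAAT motif was absent as well, and so was TGANTCA, which AP-1 factors bind and which the later Igfbp2 window held once. Among 32851 promoter windows of the same length, 32.7% held a GC box, 6.02% an E box, 12.4% the TATA motif, 33.8% the CCAAT motif and 6.75% an AP-1 motif. The palindromic estrogen response element (GGTCA, 3 bases of any kind and TGACC) was in none of the 13 windows found for 9 of the 10 genes, and in 0.0639% of all windows. Its half-site (GGTCA, which is also part of the full element) was in 7 of the 13 windows and in 35.2% of all windows. The Igfbp2 window shown was G and C at 67.2% of its bases, the Igfbp3 window at 73.2% and the Igfbp5 window at 58.8%, against a median of 52.4%. A match is only a description of the letters.

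Levels between genes are compared as TPM, which are scaled to transcript length. Igfbp7, whose product binds IGFs weakly and is abundant around vessels and smooth muscle, had the highest level (median 69.5 TPM over 30 libraries, range 34.0 to 120). Igfbp5 followed (29.1, range 14.9 to 43.5). Igfbp7 exceeded Igfbp5 in 30 of 30 libraries.

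Insr, the insulin receptor, was the third (21.2 TPM, range 15.4 to 26.0), and it varied least. It exceeded Igfbp4 (13.2) in 30 of 30 libraries but was itself exceeded by Igfbp5 in only 22 of 30. In each CD female Insr was above Igfbp5, with group medians of 22.5 and 16.6 TPM. Igfbp4 (13.2), Igfbp6 (11.6) and Igfbp3 (11.4) had no single order over all libraries. Igfbp4 was above Igfbp6 in 19 of 30 libraries and Igfbp6 above Igfbp3 in 15 of 30. The order of Igfbp3 and Igfbp6 differed by group. Median Igfbp3 was above median Igfbp6 in CD females (14.2 and 8.39 TPM) and HFD females (18.6 and 12.4). It was below in CD males (11.1 and 13.9) and HFD+E2 males (8.49 and 14.1), and close in HFD males (10.6 and 10.1). Igf1r (8.97) was below Igfbp3 in 24 of 30 libraries, and Igfbp2 (6.13) was below Igf1r in 22 of 30. Igf1 (2.74) and Igf2 (0.802) were the lowest.

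The 6 binding proteins together reached 144 ± 33.0 TPM (mean ± SD, n = 30), against 29.7 ± 3.46 TPM for the 2 receptors and 3.97 ± 1.42 TPM for the 2 ligands. Igf1 made up 76.7% ± 7.48 of the ligand TPM. Igf2, the fetal growth factor whose gene is imprinted, rested on only 19 to 52 counts per library, and a readthrough gene, Gm49394, overlaps it on the same strand. The least variable gene within groups was Insr (coefficient of variation 14.1%) and the most variable was Igfbp2 (57.4%).

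**Figure D1:**
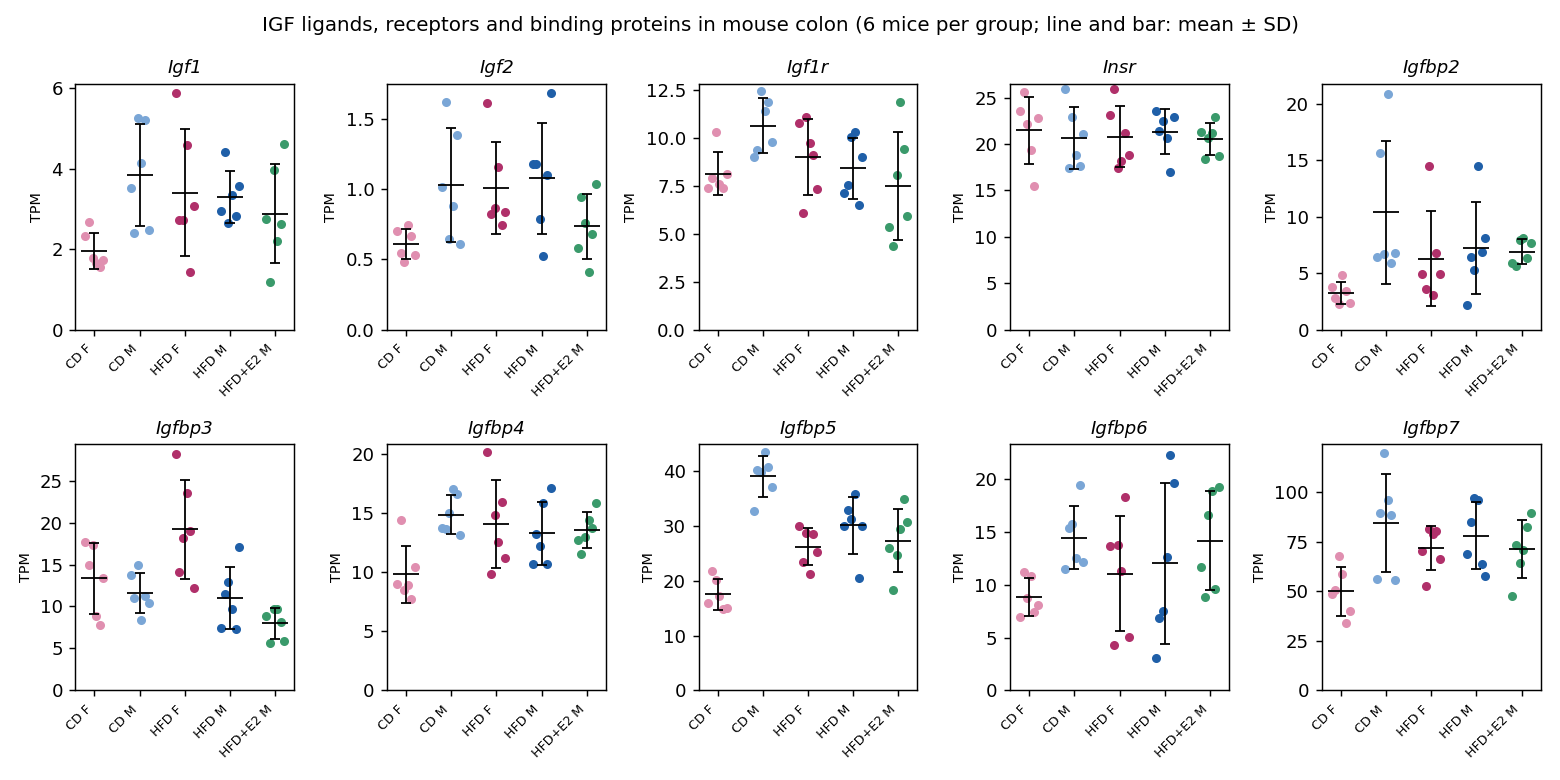
TPM of the 10 genes in each of the 30 libraries, by group (CD F, CD M, HFD F, HFD M and HFD+E2 M, 6 mice each, 1 point per mouse), with the vertical axis in TPM starting at 0 and lines and bars for the mean ± SD. Igfbp5 was between 14.9 and 21.9 TPM in CD females and between 32.7 and 43.5 TPM in CD males.

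The first comparison asked how the colon of females differs from that of males on CD. Of the 10 genes, 3 were lower in females with an adjusted p-value under 0.05 in edgeR's quasi-likelihood test, namely Igfbp5, Igf1 and Igfbp2, and 0 were higher. Among all 14922 genes tested 2.92% passed this threshold, and 2.14% did so with lower expression in females. The threshold of the paper asks for p under 0.05, read here as unadjusted, and a change of over 0.4 up or down on the log2 scale. By it, 7 of the 10 genes were DEGs and all 7 were lower in females, against 9.15% of all genes in either direction and 6.21% lower in females. The median log2 fold change of the 10 genes was -0.54, against 0.01 over all genes. The 6 binding proteins summed to 103 ± 18.2 TPM in CD females and 175 ± 32.6 TPM in CD males (n = 6 each), and the 2 ligands to 2.57 ± 0.440 and 4.86 ± 1.27 TPM. TPM were used as deposited, and over all genes they leaned lower in CD females than the normalized counts. By the threshold of the paper, limma on log2 TPM with 0.1 added had 1234 genes lower and 204 higher in females, against 927 and 439 by edgeR. The log2 fold change of Igf1 was -0.90 in TPM and -0.69 in counts.

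Igfbp5, the binding protein most conserved among vertebrates and one that attaches to extracellular matrix, had from 14.9 to 21.9 TPM in CD females (median 16.6) and from 32.7 to 43.5 TPM in CD males (median 40.1). All 6 females were below all 6 males. The log2 fold change was -1.07 (SE 0.12, adjusted p = 0.000127), a 2.10-fold difference. It passed the adjusted threshold in all 12 fits that left out 1 library (log2 fold changes from -1.15 to -1.03).

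Igf1, the main growth-promoting ligand after birth, had from 1.56 to 2.68 TPM in CD females (median 1.76) and from 2.40 to 5.27 TPM in CD males (median 3.83). In normalized CPM, the scale of the test, the ranges were 9.03 to 11.6 in females and 12.7 to 19.3 in males and did not overlap, while in TPM they did. The log2 fold change was -0.69 (SE 0.13, adjusted p = 0.00810), and all 12 fits without 1 library passed. Non-overlapping CPM in the 2 groups were found for Igf1 and Igfbp5 among the 10 genes, and for 2.17% of all genes. On log2 TPM with 0.1 added, limma gave an adjusted p of 0.0757 for Igf1.

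Igfbp2, a binding protein found in blood and in many tissues, had from 2.31 to 4.88 TPM in CD females (median 3.08) and from 5.94 to 20.9 TPM in CD males (median 6.75). CD males 2 and 4 were the highest (15.7 and 20.9 TPM), and the other 4 males were at 5.94 to 6.83 TPM. The CPM of the highest female (5.76) lay just above that of the lowest male (5.72). The log2 fold change was -1.49 (SE 0.35, adjusted p = 0.0344). The adjusted p ranged from 0.0159 to 0.0778 when 1 library was left out and passed in 5 of 12 such fits. It was lost without CD females 1, 2, 3, 5 or 6 and without CD males 2 or 4, and also with no filter on low counts (adjusted p = 0.0989).

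The other 4 genes past the threshold of the paper did not pass the adjusted one. Igfbp4, whose product mostly inhibits IGF action, had a median of 9.00 TPM in CD females (7.73 to 14.5) and 14.4 in CD males (13.2 to 17.1), with a log2 fold change of -0.46 (SE 0.12, adjusted p = 0.0570). Igfbp6, which prefers IGF2, had medians of 8.39 (6.90 to 11.2) and 13.9 TPM (11.5 to 19.4) and a log2 fold change of -0.60 (SE 0.18, adjusted p = 0.0916). In normalized CPM the sexes overlapped for both genes. Igfbp4 had 23.3 to 38.4 CPM in CD females and 34.0 to 45.7 in CD males, and Igfbp6 had 5.62 to 10.4 and 8.40 to 16.7.

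Igfbp7 had medians of 49.7 (34.0 to 68.0) and 89.0 TPM (55.5 to 120) and a log2 fold change of -0.57 (SE 0.20, adjusted p = 0.172). Polr2b overlaps Igfbp7 on the opposite strand, with 556 to 1200 counts per library, and the strand setting of the counting is not given in the sources used here, so that reads of the pair may be shared. Igf2 had medians of 0.607 and 0.945 TPM and a log2 fold change of -0.51 (SE 0.24, adjusted p = 0.324), and it was past the threshold of the paper in only 5 of the 12 fits without 1 library.

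The receptors and Igfbp3 were the 3 members past neither threshold. Igf1r had medians of 7.76 and 10.6 TPM (log2 fold change -0.28, SE 0.12, adjusted p = 0.303). Insr had 22.5 and 19.96 TPM (0.17, SE 0.09, adjusted p = 0.393). Igfbp3, the main carrier of IGFs in blood, had 14.2 and 11.1 TPM (0.28, SE 0.16, adjusted p = 0.461). Igfbp3 took 12.9% ± 3.32 of the binding protein TPM in CD females and 6.88% ± 2.005 in CD males, with ranges of 8.04% to 17.3% and 4.25% to 10.2%.

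**Figure D2:**
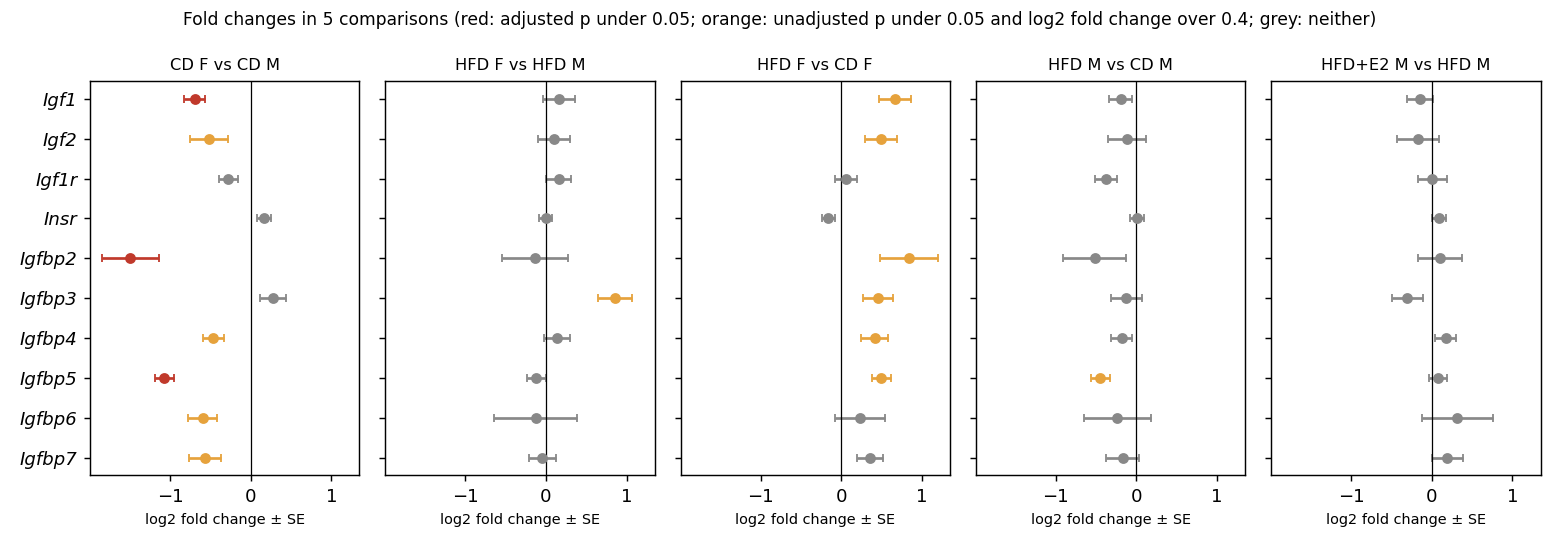
Log2 fold change ± SE (horizontal axis) of the 10 genes in the 5 comparisons, positive where the group named first is higher, with 6 mice per group. Red points passed the adjusted threshold and are found in CD F vs CD M, where Igf1, Igfbp2 and Igfbp5 sit at -0.69, -1.49 and -1.07, and orange points passed the threshold of the paper.

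Markers of the muscle layer, of connective tissue, of vessels and of macrophages were also mostly lower in CD females than in CD males. The part of vessels and macrophages in the results was not tested. In bulk tissue, fewer cells of a type and less RNA per cell cannot be told apart. All 8 smooth muscle markers tested were lower in CD females (median log2 fold change -0.61), and 5 of them passed the adjusted threshold (Acta2, Actg2, Tagln, Des and Synpo2). Their summed CPM ranged from 5597 to 8777 in CD females and from 7475 to 13004 in CD males. All 8 fibroblast markers were lower too (median -0.55), with Col1a2, Col3a1 and Col6a1 past the adjusted threshold, and their summed CPM ranged from 1148 to 1565 in females and from 1598 to 2400 in males. Of 8 endothelium markers 7 were lower (median -0.31), 1 of them past the adjusted threshold, Cdh5, and 3 past that of the paper. Of 8 macrophage markers 7 were lower as well (median -0.31), with 0 past the adjusted threshold and 3 past that of the paper. Of 8 B cell markers all were higher in females (median 1.34) and 0 passed the adjusted threshold.

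With the smooth muscle score as a covariate, Igfbp5 had a log2 fold change of -0.65 (adjusted p = 0.00921), Igf1 of -0.63 (adjusted p = 0.0935), Igfbp2 of -0.58 (adjusted p = 0.558) and Igfbp7, on the other side of 0, of 0.27 (adjusted p = 0.348). In that fit 1 of the 10 genes passed the adjusted threshold, and 231 of 14922 genes did. With the fibroblast score, the values were -0.89 for Igfbp5 (adjusted p = 0.607), -0.45 for Igf1 (adjusted p = 1), -1.77 for Igfbp2 (adjusted p = 1) and -0.09 for Igfbp4 (adjusted p = 1). None of the 10 genes passed by edgeR then, 2 of the 10 were past the threshold of the paper, and only 11 genes of 14922 passed the adjusted threshold. The fibroblast score was from 6.68 to 7.17 in CD females and from 7.19 to 7.66 in CD males, so that this score and sex cannot be told apart in these 12 libraries.

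**Figure D3:**
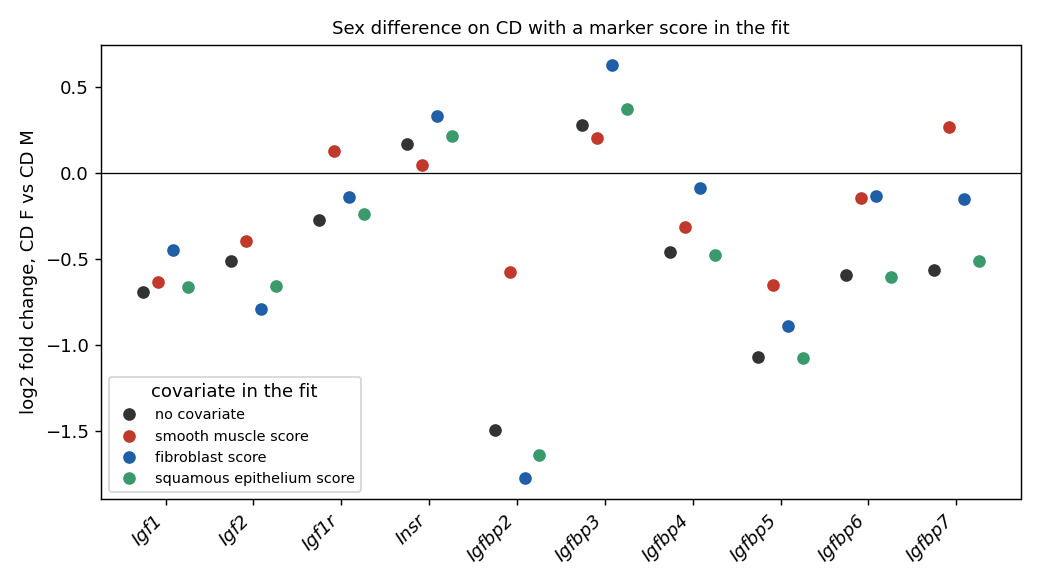
Log2 fold change of the 10 genes between CD females and CD males (vertical axis, negative where females are lower), without a covariate and with the smooth muscle, fibroblast or squamous epithelium score of each library in the fit. Igfbp5 stayed between -1.08 and -0.65, and Igfbp7 moved from -0.57 to 0.27 with the smooth muscle score.

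Of 45 further genes of the pathway, 38 could be tested on CD. Of these, 4 passed the adjusted threshold (2 higher and 2 lower in females) and 6 the threshold of the paper, against 2.92% and 9.15% of all genes, with a median log2 fold change of -0.04. All 5 genes for proteases that cut binding proteins and for their inhibitors were past the threshold of the paper. Stc2, the stanniocalcin that blocks PAPP-A, was lower in females (1.28 to 3.09 CPM, against 2.83 to 4.85 in males, log2 fold change -0.85, adjusted p = 0.0390). Pappa2, a protease for IGFBP3 and IGFBP5, was higher (13.4 to 18.5 CPM, against 9.26 to 13.5, log2 fold change 0.47, adjusted p = 0.0472). Pappa had a log2 fold change of -0.52 (adjusted p = 0.0664), Htra1 of -0.48 (adjusted p = 0.0570) and Stc1 of -1.23 (adjusted p = 0.103), the last at about 1 CPM.

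Igf2r, the receptor that takes IGF2 to lysosomes, was higher in females (209 to 239 CPM, against 162 to 198, log2 fold change 0.32, adjusted p = 0.0201). Grb10, an adaptor that dampens IGF1 and insulin receptor signaling, was lower (14.9 to 20.3 CPM, against 20.9 to 27.6, log2 fold change -0.42, adjusted p = 0.0398). None of the 9 genes of the PI3 kinase and Akt arm, the 8 genes of the mTOR arm or the 5 genes of the growth hormone axis passed either threshold, with log2 fold changes from -0.27 to 0.21. The count of 4 genes ranged from 0 to 5 when 1 library was left out and was 0 without CD male 3 or CD male 5.

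On HFD, females were again compared with males. None of the 10 genes passed the adjusted threshold by edgeR, where 0.0988% of all genes did, and 1 was past the threshold of the paper, Igfbp3, which was higher in females. The background was 3.09% in either direction and 2.01% higher in females, and Igfbp3 was also the 1 gene of the 10 with an unadjusted p under 0.05, where 773 of 15179 genes had one. DESeq2 called 1 of the 10 genes, Igfbp3, with an adjusted p of 0.0476, and 50 of 27986 genes in all. The median log2 fold change of the 10 genes was 0.05.

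Igfbp3 had from 12.2 to 28.2 TPM in HFD females (median 18.6) and from 7.36 to 17.04 TPM in HFD males (median 10.6). The ranges overlapped. The log2 fold change was 0.86 (SE 0.21, adjusted p = 0.470), and it stayed past the threshold of the paper in 12 of 12 fits without 1 library. HFD females 2 and 6, the 2 without squamous markers, had the lowest Igfbp3 of their group (14.2 and 12.2 TPM). Among HFD males the order was another. Male 6, with a squamous score of -1.52, had the highest Igfbp3 (17.04 TPM), against 11.5 and 9.65 TPM in males 2 and 4, which had squamous markers. Without the libraries with a squamous score above 0, which leaves 2 HFD females and 4 HFD males, the log2 fold change was 0.30 (adjusted p = 1).

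HFD females 2 and 6 also had the lowest Igfbp6 of HFD females (4.33 and 5.01 TPM, against 11.3 to 18.3 TPM in the other 4). In HFD males, Igfbp6 was highest in males 5 and 6 (22.3 and 19.6 TPM), with squamous scores of -1.49 and -1.52. Males 2 and 4, with squamous markers, had 6.89 and 12.6 TPM. Igfbp6 had a log2 fold change of -0.13 (SE 0.51) between the sexes on HFD, with 3.08 to 22.3 TPM in HFD males. Igfbp5 had from 21.3 to 29.99 TPM in HFD females and from 20.6 to 35.8 in HFD males (log2 fold change -0.12, SE 0.12, approximate 95% interval -0.35 to 0.11). Igf1 had from 1.44 to 5.89 and from 2.66 to 4.41 TPM (0.16, SE 0.20, interval -0.23 to 0.55). Of 39 further pathway genes tested, 0 passed the adjusted threshold and Pappa2 alone was past that of the paper (log2 fold change 0.46, adjusted p = 0.872).

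**Figure D4:**
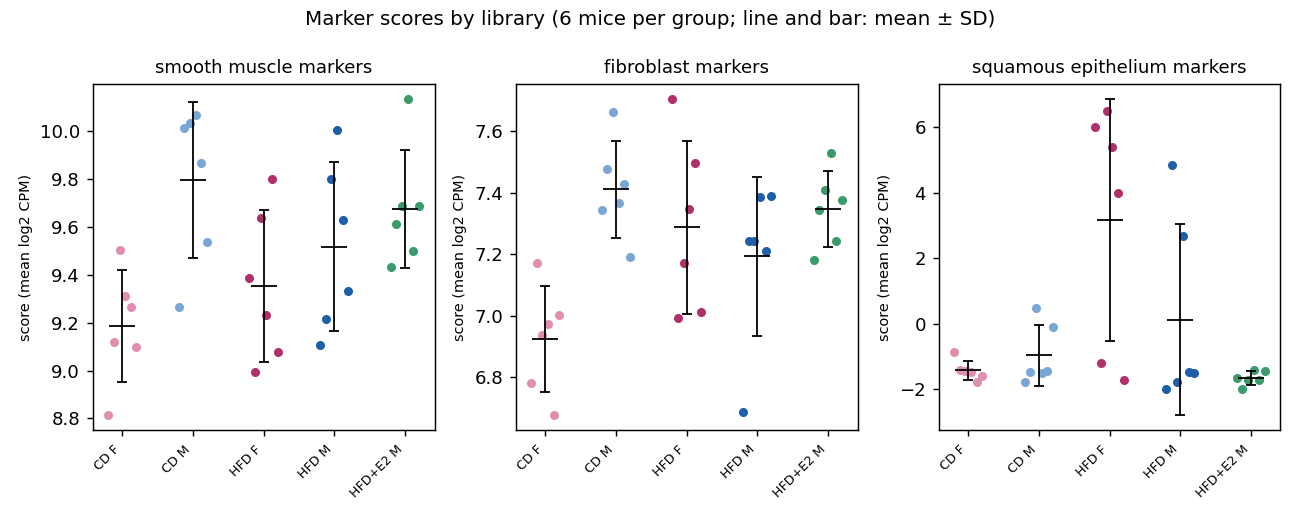
Scores of smooth muscle, fibroblast and squamous epithelium markers (vertical axis, mean log2 CPM of the markers) in each library by group, with 1 point per mouse and lines and bars for the mean ± SD of 6 mice. Squamous scores lay between -2.01 and -0.107 in most libraries and reached 6.51 in HFD females and 4.84 in HFD males.

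The diet comparisons asked how HFD changes the colon of each sex. They share the CD libraries with the comparison of the sexes on CD, and so the values are given side by side and not as separate evidence. In females, none of the 10 genes passed the adjusted threshold by edgeR (background 0.0199%), while 6 were past the threshold of the paper and all 6 were higher on HFD, namely Igf1, Igf2, Igfbp2, Igfbp3, Igfbp4 and Igfbp5. The background was 3.67% of all genes in either direction and 2.95% higher on HFD. The median log2 fold change of the 10 genes was 0.44, against 0.00123 for all genes, and 7 of the 10 had an unadjusted p under 0.05, where 856 of 15061 genes had one. DESeq2 called 1 of the 10 genes, Igfbp5 (adjusted p = 0.0152), and 214 of 27955 genes in all. The fit to all 30 libraries also called Igfbp5 (adjusted p = 0.0406), among 86 of 16060 genes.

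Igfbp5 in females was between 14.9 and 21.9 TPM on CD and between 21.3 and 29.99 TPM on HFD. In normalized CPM the highest CD female (93.1) lay just below the lowest HFD female (94.8), and 0.212% of all genes had groups that did not overlap. The log2 fold change was 0.50 (SE 0.12, adjusted p = 0.410). Igf1 had a log2 fold change of 0.66 (SE 0.20, adjusted p = 0.500), with HFD females 1 and 4 highest at 5.89 and 4.60 TPM and HFD female 5 lowest at 1.44 TPM. Both genes stayed past the threshold of the paper in 12 of 12 fits without 1 library.

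Igfbp2 had a log2 fold change of 0.84 (SE 0.36, adjusted p = 0.803), Igf2 of 0.49 (SE 0.20, adjusted p = 0.718), Igfbp3 of 0.46 (SE 0.19, adjusted p = 0.737) and Igfbp4 of 0.42 (SE 0.17, adjusted p = 0.708). These 4 each left the threshold in some fits without 1 library, and the count of 6 genes was 3 without HFD female 5. All 8 smooth muscle markers (median log2 fold change 0.21) and all 8 fibroblast markers (median 0.38) had higher values on HFD and 0 passed the adjusted threshold by edgeR, with 0 of the smooth muscle and 4 of the fibroblast markers past that of the paper. Without HFD females 1, 3, 4 and 5, the 4 with squamous markers, 3 of the 10 genes were past the threshold of the paper. The log2 fold change was then 0.41 for Igfbp5, 0.45 for Igf1, 0.36 for Igf2, 0.24 for Igfbp2, 0.0076 for Igfbp4 and -0.07 for Igfbp3 (each adjusted p = 1). Of the 6 genes, only Igfbp5 and Igf1 then changed by over 0.4, so the 3 genes past the threshold were not all among the 6. Igfbp6, which was not among the 6, was then lower on HFD. With the squamous score in the fit instead, 2 of the 10 genes were past the threshold, and they need not be among the 6 either.

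In males, none of the 10 genes passed the adjusted threshold between HFD and CD by edgeR, as for all 14991 genes (background 0%). DESeq2 called 0 of the 10, and 2 of the 10 had an unadjusted p under 0.05, Igf1r and Igfbp5, where 904 of 14991 genes had one. Igfbp5 was past the threshold of the paper and lower on HFD, against a background of 2.90% in either direction and 1.64% lower. It had from 32.7 to 43.5 TPM on CD and from 20.6 to 35.8 TPM on HFD (log2 fold change -0.45, SE 0.12, adjusted p = 0.549). All 8 smooth muscle markers were lower on HFD in males too (median -0.28), as were 5 of 8 fibroblast markers (median -0.25), with 0 of either past a threshold. Igfbp5 was no longer past the threshold of the paper with the smooth muscle score in the fit (-0.32), with the fibroblast score (-0.37) or by limma on log2 TPM with 0.1 or 1 added (-0.39 and -0.38). Without the libraries with a squamous score above 0 it was at -0.57 (adjusted p = 0.577). Igf1r had a log2 fold change of -0.38 (SE 0.14, adjusted p = 0.762). The other 8 genes had log2 fold changes from -0.52 (Igfbp2) to 0.01 (Insr), and 9 of the 10 were below 0, with a median of -0.19. The count of 1 gene past the threshold of the paper was 3 without HFD male 4. Among the further pathway genes Stc2 (-0.68, adjusted p = 0.704) and Socs2 (-0.45, adjusted p = 0.549) were past that threshold, both lower on HFD.

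The difference between the HFD responses of females and males was fitted as an interaction of sex and diet over 24 libraries. None of the 10 genes passed the adjusted threshold by edgeR (background 0%), and 5 were past the threshold of the paper, all more positive in females, against 5.18% of all genes in either direction and 3.71% more positive in females. Igfbp5 had the smallest p-value of the 10 (interaction 0.95 on the log2 scale, SE 0.17, adjusted p = 0.104). The interaction was 0.85 for Igf1 (SE 0.25, adjusted p = 0.477), 1.35 for Igfbp2 (SE 0.57, adjusted p = 0.692), 0.60 for Igfbp4 (SE 0.22, adjusted p = 0.630) and 0.43 for Igf1r (SE 0.20, adjusted p = 0.727). Without the libraries with a squamous score above 0, the interaction was 0.96 for Igfbp5, 0.67 for Igf1, 1.16 for Igfbp2, 0.24 for Igfbp4 and 0.03 for Igf1r (each adjusted p = 1). For Igfbp5 DESeq2 gave an adjusted p of 0.000840, where it called 7 of 29614 genes, and edgeR without the filter on low counts gave one of 0.0345, where 1 of 29643 genes passed. The adjusted p of Igfbp5 was between 0.0110 and 0.338 when 1 library was left out, and passed without CD male 1 or without HFD female 2.

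The last comparison asked what E2 changes in HFD males. None of the 10 genes passed either threshold (background 0.00666% for the adjusted one and 5.87% for that of the paper), 0 had an unadjusted p under 0.05, where 1535 of 15010 genes had one, and DESeq2 called 0 too. The log2 fold changes ran from -0.30 for Igfbp3 to 0.32 for Igfbp6, with a median of 0.08. TPM leaned lower with E2 over all genes than the normalized counts. By the threshold of the paper, limma on log2 TPM with 0.1 added had 1285 genes lower and 160 higher, against 486 and 395 by edgeR. Igfbp3 had from 5.67 to 9.65 TPM in HFD+E2 males (median 8.49) and from 7.36 to 17.04 TPM in HFD males (median 10.6). The groups overlapped (log2 fold change -0.30, SE 0.19, adjusted p = 0.544). Without HFD males 2 and 4, which had squamous markers, 0 of the 10 genes passed either threshold, and Igfbp3 was at -0.32 (adjusted p = 0.837).

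Igfbp5 had from 18.3 to 34.9 TPM with E2 and from 20.6 to 35.8 with vehicle (log2 fold change 0.08, SE 0.11, approximate 95% interval -0.15 to 0.30). Igf1 had from 1.19 to 4.62 and from 2.66 to 4.41 TPM (-0.15, SE 0.16, interval -0.46 to 0.16). Igfbp6 was the least certain (0.32, SE 0.44, interval -0.54 to 1.17). Among 38 further pathway genes tested, Pappa alone was past the threshold of the paper (-0.71, adjusted p = 0.454).

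Within the groups, over the 30 libraries, the 10 genes did not vary as one block. The mean of each group was first subtracted from each gene and each score, so that differences between groups do not enter. The Pearson correlation of log2 CPM then had a median of 0.069 over the 45 pairs and was positive in 28. These values are descriptions over libraries of the same groups, whose tissue makeup was not held fixed. The closest pairs were Igfbp4 with Igfbp6 (0.752), Igfbp5 with Igfbp7 (0.680) and Igf1r with Igfbp7 (0.670). Igf1r, Igfbp7, Igfbp5, Igfbp2 and Igfbp6 followed the smooth muscle score (0.754, 0.737, 0.659, 0.618 and 0.600). Igfbp4, Igfbp6 and Igfbp3 followed the fibroblast score (0.774, 0.681 and 0.656), and Igf1, Igf2 and Insr followed neither (from -0.239 to 0.310). The split was not clean. Igf1r also had 0.508 with the fibroblast score and 0.569 with that of enteric neuron and glia markers, and Igfbp4 had 0.497 with smooth muscle. Igf2 had 0.478 with colon epithelium and 0.425 with B cell markers, and Igfbp5 had -0.502 with B cell markers.

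The genes most alike by the same correlation within groups were sought among 10967 genes with a mean of at least 5 CPM. Igfbp7 was nearest to Ndufs5 (0.924), Eid1 (0.922) and Penk (0.919), and Igfbp6 to Ptk7 (0.901), Agap3 (0.895) and Rps15 (0.894). Igf1r was nearest to Pcnx (0.863), Nkd2 (0.857) and Tshz2 (0.853), and Igfbp2 to Pmf1 (0.839), Tkt (0.827) and Mmab (0.816). For Igfbp4 they were Loxl1 (0.823), Col1a2 (0.794) and Col1a1 (0.764), and for Igfbp5 Ehd4 (0.762), Cpxm2 (0.756) and Cnn1 (0.728). Insr was nearest to Pck1 (0.778), Reps2 (0.736) and Tmem87b (0.728), and Igf2 to Uck2 (0.750), Dtx4 (0.749) and Taf10 (0.700). For Igfbp3 they were Dchs1 (0.743), Dkk3 (0.738) and Fxyd6 (0.714), and for Igf1 Adrbk2 (0.651), Zfp367 (0.631) and Tgfbr3 (0.631).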

How the data were processed

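RNA-seq was measured in 30 mouse colon libraries, grouped by diet, sex and treatment as given for each library. The libraries were TruSeq Stranded Total RNA after ribosomal RNA removal. The authors used bcl2fastq 2.19.1.403, Trim Galore, STAR and featureCounts on GRCm38 and deposited whole-number counts for 46078 genes, without normalization. The authors also deposited TPM from StringTie for each library, in which 16 to 24 gene identifiers per table were listed more than once and were summed here. Versions of the other tools and the strand setting are not given in the sources used here. Columns that belong to no sample numbered 0.

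For each comparison 12 libraries of counts entered edgeR 4.0.16, run in R 4.3.3 (filterByExpr, TMM normalization, robust quasi-likelihood fit and F-test), and the interaction used 24. P-values were adjusted by Benjamini-Hochberg over all genes tested. The threshold of the paper was read as p under 0.05 without adjustment and a change of over 0.4 on the log2 scale. The paper names a limit on the p value and, apart from it, an FDR by Benjamini-Hochberg. Standard errors follow from the F statistic. Correlations used log2 CPM with a prior count of 2, after the mean of each group was subtracted. Levels are given in TPM, and the tests use counts. The filter and depth leave Igf2 on 19 to 52 counts per library, so that its errors are wide, and counting error alone is not the spread between mice.

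The 10 genes, the list of 45 further pathway genes and the marker lists were chosen with earlier results of these data known. Named are the 10 genes, the pathway genes past a threshold and, for each of the 10 genes, the 3 genes with the highest correlation. Alternatives were DESeq2 1.42.0, its size factors, no filter, a fit to all 30 libraries, a block for the replicate number, 1 library left out, a smooth muscle, fibroblast or squamous score as a covariate, and limma 3.58.1 on log2 TPM with 0.1 or 1 added (mean TPM of at least 1). The fit without libraries with a squamous score above 0 was chosen after seeing the data. The fits were tested on simulated data first. No 2 libraries of the same group were duplicates by a chi-square test of their counts, and libraries of different groups were not compared.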

Additional observations from a re-analysis of the deposited data

Results flagged for a closer look

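Among 50 tests of the highest and lowest library within a group, 2 libraries stood far from the other 5 of their group in TPM, where chance gives about 1 in 20. Igf1r was 10.3 TPM in CD female 3, above the others of its group (7.35 TPM at the lowest, median 7.76). Igfbp2 was 14.5 TPM in HFD female 3, where the median of the group was 4.92. Without HFD female 3, the log2 fold change of Igfbp2 between HFD and CD in females had its lowest value, 0.42. HFD female 3 also had the highest squamous score, 6.51, and the part of this in its Igfbp2 was not tested.

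The interaction of sex and diet had an unadjusted p under 0.05 for 5 of the 10 genes, each more positive in females, where 1066 of 15800 genes had one. None of the 5 passed the adjusted threshold by edgeR, so that a difference between the sexes in the HFD response is not shown at that threshold. On the log2 scale the interaction was 0.85 for Igf1 (unadjusted p = 0.00184), 0.43 for Igf1r (0.0433), 1.35 for Igfbp2 (0.0272), 0.60 for Igfbp4 (0.0102) and 0.95 for Igfbp5 (6.58e-06).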

How the results depend on the processing

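On CD, the log2 fold changes of Igfbp5, Igf1 and Igfbp2 kept their negative sign in every fit run, but not their size or call: Igfbp2 was at -0.58 (adjusted p = 0.558) with the smooth muscle score and Igf1 at -0.45 (adjusted p = 1) with the fibroblast score. The 3 genes past the adjusted threshold there were 5 with DESeq2 and 6 with the replicate number as a block, 1 with the smooth muscle score and 0 with the fibroblast score, and 2 to 6 when 1 library was left out (6 without CD male 1). The 7 genes past the threshold of the paper were 2 with the smooth muscle score and 2 with the fibroblast score. The 4 further pathway genes were 2 without a filter, 1 with the smooth muscle score, 0 with the fibroblast score, 0 with the squamous score, 0 with limma on log2 TPM with 0.1 or 1 added, 0 without the libraries with a squamous score above 0, and 0 to 5 when 1 library was left out. The causes were not tested, and fits that leave libraries out also have fewer samples.

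On HFD, the adjusted count of females against males went from 0 to 1 with DESeq2, and the count of 1 by the threshold of the paper was 0 without the libraries with a squamous score above 0. For HFD against CD in females, the adjusted count of 0 was 1 with DESeq2 and 1 with all 30 libraries, and that of the further pathway genes was 2 with DESeq2. The count of 6 past the threshold of the paper was 3 with the smooth muscle score, 2 with the fibroblast score and 2 with the squamous score. It was 3 without the libraries with a squamous score above 0, and 3 to 7 when 1 library was left out. The genes counted in these fits need not be among the 6 or higher on HFD. In males the count of 1 was 2 with the replicate block, 0 with the smooth muscle score, 0 with the fibroblast score, 2 with the squamous score, 0 with limma on either TPM scale, and 1 to 3 when 1 library was left out (2 without CD males 1 or 2 or HFD male 3). For E2 the count of 0 was 1 with the fibroblast score and 0 to 1 when 1 library was left out (1 without HFD male 1). For the interaction the adjusted count of 0 was 1 with DESeq2, 1 without a filter, 1 with the replicate block, and 0 to 1 when 1 library was left out.

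Same-numbered samples of the groups compared did not deviate together in all pairs, with correlations from -0.141 to 0.514 on CD. The mean of these was 0.242, against -0.047 for samples of other numbers. On CD, 4 of 6 females correlated best with the male of their number. It was also 4 of 6 for HFD in males and for E2, but 1 between the sexes on HFD and 0 for HFD in females. A factor shared by same-numbered samples was not tested. No pairing is stated for the libraries, so the block is only an alternative. The block gave 941 genes past the adjusted threshold on CD, against 435. Among them by edgeR were Igfbp4 (adjusted p = 0.0136), Igfbp6 (0.0239) and Igfbp7 (0.00405), which did not pass in the main fit.

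Signs turned for genes whose value in the main fit was near 0 or had a wide error. None of these was past a threshold in the main fit except Igfbp7 on CD and Igfbp3 for HFD in females, both past that of the paper. The turned values were not all small, and those of Igfbp6 for HFD in females ranged down to -0.98. With the smooth muscle score, log2 fold changes of the other sign were found on CD for Igf1r (0.13) and Igfbp7 (0.27), between the sexes on HFD for Igfbp2 (0.12), Igfbp6 (0.083) and Igfbp7 (0.068), for HFD in females for Igf1r (-0.084) and Igfbp6 (-0.22), for HFD in males for Insr (-0.018), Igfbp6 (0.0072) and Igfbp7 (0.15), for E2 for Igf1r (-0.15) and Igfbp2 (-0.049), and for the interaction of Igfbp6 (-0.20). With the fibroblast score they were found between the sexes on HFD for Insr (0.00075), for HFD in females for Igf1r (-0.086) and Igfbp6 (-0.47), for HFD in males for Igfbp3 (0.14), Igfbp6 (0.22) and Igfbp7 (0.090), for E2 for Igf1r (-0.18), Igfbp2 (-0.21) and Igfbp6 (-0.12), and for the interaction of Igfbp3 (-0.11) and Igfbp6 (-0.76). With the squamous score they were found between the sexes on HFD for Igf1r (-0.014), Insr (0.058) and Igfbp4 (-0.042), and for HFD in females for Igf1r (-0.29), Igfbp3 (-0.053) and Igfbp6 (-0.76). Without the libraries with a squamous score above 0 they were found between the sexes on HFD for Igf2 (-0.14), Igf1r (-0.20), Insr (0.097) and Igfbp4 (-0.23), for HFD in females for Igf1r (-0.33), Igfbp3 (-0.074) and Igfbp6 (-0.98), and for the interaction of Igfbp3 (-0.064) and Igfbp6 (-0.92).

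With limma on log2 TPM with 0.1 and with 1 added, in that order, signs turned between the sexes on HFD for Igf1 (-0.057 and -0.025) and Igf2 (-0.060 and -0.042), for HFD in males for Igf2 (0.065 and 0.036), and for E2 for Igf1r (-0.23 and -0.20), Insr (-0.051 and -0.049), Igfbp5 (-0.15 and -0.14) and Igfbp7 (-0.13 and -0.13). Without a filter Insr turned for HFD in males (-0.0063), and with the replicate block Igfbp6 turned between the sexes on HFD (0.0024) and Igf1r for E2 (-0.030). When 1 library was left out, signs turned between the sexes on HFD for Igf2 (-0.014 to 0.15), Insr (-0.047 to 0.035), Igfbp2 (-0.55 to 0.16), Igfbp6 (-0.38 to 0.26) and Igfbp7 (-0.13 to 0.043), for HFD in females for Igf1r (-0.013 to 0.16) and Igfbp6 (-0.022 to 0.41), for HFD in males for Insr (-0.027 to 0.043), and for E2 for Igf1r (-0.14 to 0.12) and Igfbp2 (-0.061 to 0.39).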
